A study of Mus musculus with 6 samples.

Results

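The genes described here encode 38 enzymes of purine and pyrimidine metabolism, from the steps that build the rings to the steps that recycle bases and nucleosides, make deoxynucleotides and charge nucleotides with phosphate. They were taken by gene symbol from a list of enzymes drawn up with earlier results of these data known, although its rule uses no measured value, and all 38 were found among the 22939 genes of the count table (Adss, Adssl1 and Ctps under these older symbols). Their RNA was compared between regulatory T (Treg) cells cultured without sorafenib (ctrl-Treg) and with sorafenib (Sora-Treg), 3 libraries of each. Sorafenib (Sora) is a multikinase inhibitor used against liver cancer. Naive CD4+ T cells of Foxp3-GFP mice, which carry green fluorescent protein as a reporter of the Treg transcription factor Foxp3, were stimulated through CD3 and CD28 in both groups, with TGF-β1 and with antibodies that block IFN-γ and IL4. GFP+ cells were then sorted for RNA. As described, the groups differed in Sora alone, whose dose for these libraries was not stated, and no age was given in the labels. The labels do not say whether the libraries of a group came from separate animals or cultures, so p-values measure only the spread between these libraries, which may be technical.

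Cells obtain nucleotides by a pair of routes. In de novo synthesis, purine and pyrimidine rings are built from amino acids, carbon units carried by folate and activated ribose (PRPP), and in salvage, free bases and nucleosides are taken up and charged again. Resting T cells make few nucleotides, whereas T cells driven through their antigen receptor raise both routes before they copy their DNA, and drugs that block these enzymes are used to suppress T cells.

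Of the 38 genes, 27 were lower and 8 were higher in Sora-Treg cells at an adjusted p under 0.05, and Gmps, Hprt and Uck1 were not called. The lower genes made up 71.1% of the list, while 29.9% of the 13463 genes tested across the genome were called lower and 29.7% higher. All 38 passed the filter on low counts. The median log2 fold change of the 38 genes was -0.34, beside -0.0035 over all genes tested. Most changes were modest. By the criterion of the study, which asks for a more than 2-fold difference as well, 4 of the 38 genes (10.5%) were differentially expressed genes (DEGs), beside 11.3% of all genes tested. These were Upp1 and Adssl1, which were higher, as were 6.30% of all genes, and Ctps and Tyms, which were lower, as were 4.97%. The values of the groups did not overlap for 34 genes, 26 of them lower in all 3 Sora-Treg libraries, where 63.7% of all genes tested did not overlap and 32.0% lay lower. The exceptions were Gmps, Hprt, Uck1 and Pnp. By share of all counts, the 38 genes held 0.394%, 0.399% and 0.399% of the ctrl-Treg libraries and 0.336%, 0.334% and 0.338% of the Sora-Treg libraries.

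Total counts ranged from 30727686 to 37717324 per library, at which 3 counts correspond to 0.0795 to 0.0976 CPM, the count scaled to library size, a floor that covers counting error only. When counts were scaled by library totals alone instead of by TMM, which assumes that most genes do not change, the median of all genes moved to -0.12, with 21.3% of genes called higher and 41.7% lower. The 38 genes then had a median of -0.45, with 29 lower and 8 higher. The summed CPM of 7 T and Treg cell markers was 3750 to 3790 in ctrl-Treg libraries and 6630 to 6760 in Sora-Treg libraries. Of the 7, 6 were called higher, beside 29.7% of all genes tested. The sum leans on its most abundant gene, with up to 135354 counts in a library. RNA of 7 myeloid markers summed to 93.5, 93.0 and 24.9 CPM in ctrl-Treg libraries 1 to 3. In Sora-Treg libraries 1 to 3 the sums were 22.3, 42.9 and 20.8 CPM. Of the 7 myeloid markers, 5 were called lower, beside 29.9% of all genes tested. Without ctrl-Treg libraries 1 and 2, which leaves 1 ctrl-Treg library, the median log2 fold change of the 38 genes was -0.33. The log2 fold changes of Aprt, Guk1 and Pnp were then -0.09, -0.23 and -0.02, beside -0.17, -0.26 and -0.18 with all libraries. B cell markers, 5 genes of which 4 were tested, summed to 9.71 to 10.7 CPM in ctrl-Treg and 6.09 to 7.68 CPM in Sora-Treg libraries. All 4 tested were called lower, beside the same 29.9%. The 2 CD8 T cell markers, 1 of them called lower, summed to 13.2 to 15.1 CPM and 12.6 to 13.8 CPM. Natural killer markers had at most 1 count and erythroid markers at most 4 counts in any library. The part of these markers in the levels of the nucleotide genes was not tested. Leaving out ctrl-Treg libraries 1 and 2 cannot decide it, since 1 ctrl-Treg library remains and Sora-Treg library 2, at 42.9 CPM, was kept. Less RNA per cell and fewer cells of a kind, such as dividing cells, cannot be told apart in these libraries.

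**Figure D1:**
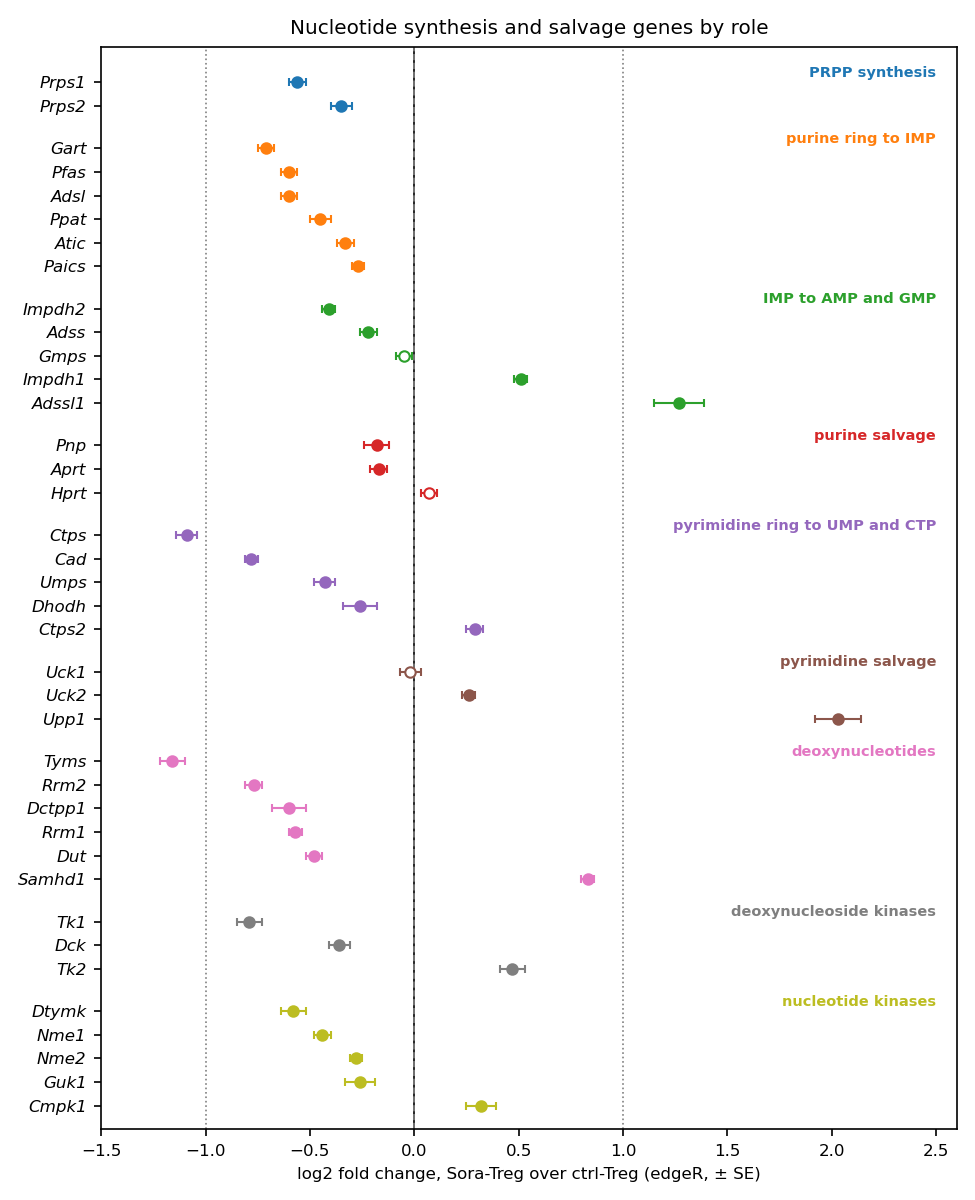
Log2 fold change of each of the 38 genes, Sora-Treg over ctrl-Treg (edgeR; bars are the standard error; filled points passed an adjusted p under 0.05, open points did not), grouped by role, with dotted lines at a 2-fold change. All 6 genes of the purine ring lie left of 0, and Upp1, at 2.03, lies farthest right.

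The promoters of the genes were read for 4 short motifs, since so many of the genes moved the same way. Promoters were RefSeq windows on GRCm38.p6, from 250 bases before to 50 bases after each start, and 36 of the 38 genes had one (Pfas and Dhodh did not). Each motif was searched on both strands. The E-box CACGTG, the site of MYC with MAX, was in 6 of the 36 promoters (16.7%), beside 11.4% of 10701 promoters of tested genes and 8.09% of all 27025 promoters. The 6 genes were Atic, Dtymk, Impdh2, Nme1, Paics and Tyms, all lower in Sora-Treg cells, as were 25 of the 36 genes with a promoter. Their stretches are shown with the motif in capitals. The first base of the motif lies 61 bases before the start for Tyms, 148 for Dtymk, 7 for Atic, 110 for Impdh2, 18 for Nme1 and 203 for Paics.
Tyms, chr5:30073644-30073723, minus strand: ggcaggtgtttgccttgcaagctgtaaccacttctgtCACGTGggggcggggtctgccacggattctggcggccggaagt
Dtymk, chr1:93802040-93802119, minus strand: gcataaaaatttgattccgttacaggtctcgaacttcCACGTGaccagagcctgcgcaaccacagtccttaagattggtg
Atic, chr1:71557076-71557155, plus strand: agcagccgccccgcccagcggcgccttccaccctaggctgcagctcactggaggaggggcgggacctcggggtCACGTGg
Impdh2, chr9:108560316-108560341, plus strand: gctcgataagCACGTGgttacccagc
Nme1, chr11:93968275-93968300, minus strand: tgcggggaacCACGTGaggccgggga
Paics, chr5:76951089-76951114, plus strand: cctcggaaagCACGTGgagggacctg
In the GENCODE annotation of GRCm38, the stretches of Tyms and Dtymk lie in no gene, and 6 bases of that of Atic lie in an exon of Atic. Those of Impdh2 and Nme1 lie in an exon of the gene itself, and that of Paics lies in an exon of Ppat, which runs away from Paics on the other strand.

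The motif of NRF1 (nuclear respiratory factor), a palindrome, was in the promoters of Ctps and Uck1 (5.56% of the 36, beside 2.23% of promoters of tested genes). Ctps was lower and Uck1 was not called. The stretch of Ctps, which fell most among genes of ring synthesis, is shown with the motif in capitals, its first base 65 bases before the start. It lies in no annotated gene.
Ctps, chr4:120570297-120570376, minus strand: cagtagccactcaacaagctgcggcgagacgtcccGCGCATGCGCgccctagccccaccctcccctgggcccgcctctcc
The E2F motif, taken as TTTCGCGC, TTTGGCGC, TTTCCCGC or TTTGCCGC, was in the promoters of Ppat and Prps2 (5.56%, beside 4.67%). Its ends can overlap the NRF1 motif, but no promoter of the 36 held both. The composite site of ATF4, TGATGCAA, was in 0 of the 36 promoters and in 0.729% of promoters of tested genes. These matches describe letters only, and no binding was measured.

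Both genes for the supply of PRPP, the activated ribose onto which purines are built and to which pyrimidine bases and salvaged purines are joined, were lower in Sora-Treg cells. Prps1, the more abundant synthetase per length (58.6 against 10.2 FPKM, the fragments per kilobase scaled by the library total, in ctrl-Treg cells), was measured at 107, 117 and 111 CPM in ctrl-Treg libraries and at 76.5, 75.2 and 75.5 CPM in Sora-Treg libraries. The Sora-Treg libraries were close together and all below the ctrl-Treg libraries (log2 fold change -0.56 ± 0.04, SE, edgeR adjusted p = 3.19e-11). Prps2 fell by less, from 94.6 ± 2.86 to 74.3 ± 5.51 CPM (mean ± SD, n = 3 each), a log2 fold change of -0.35 ± 0.05 (edgeR adjusted p = 8.10e-07). Together the pair had 68.8 ± 2.77 FPKM in ctrl-Treg and 44.2 ± 0.479 FPKM in Sora-Treg libraries.

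All 6 genes of the purine ring pathway, which turns PRPP into inosine monophosphate (IMP), were lower in Sora-Treg cells, as were 29.9% of all genes tested. The 6 log2 fold changes ran from -0.71 to -0.27, with a median of -0.53. The summed level of the 6 genes went from 243 ± 3.57 to 172 ± 3.04 FPKM. The trifunctional Gart, which catalyses early steps of the ring, changed most, at 128, 124 and 129 CPM in ctrl-Treg and 79.0, 76.8 and 77.6 CPM in Sora-Treg libraries. It was 1.63-fold lower, with no overlap and little spread within a group (log2 fold change -0.71 ± 0.04, edgeR adjusted p = 7.49e-14). Gart shares 19.7% of its exon bases with a predicted gene on the opposite strand, and whether counting used the strand was not stated.

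Pfas, which adds nitrogen from glutamine, was measured at 98.4, 97.8 and 97.0 CPM against 63.5, 65.1 and 65.1 CPM, and every Sora-Treg library lay below every ctrl-Treg library (log2 fold change -0.60 ± 0.04, edgeR adjusted p = 3.46e-12). Adsl, which cleaves off fumarate both in this pathway and on the way to AMP, changed by the same amount, from 78.5, 81.5 and 79.7 CPM to 52.1, 54.5 and 51.5 CPM (log2 fold change -0.60 ± 0.04, edgeR adjusted p = 2.00e-11). Ppat catalyses the committed step from PRPP. Its values were 63.3, 61.9 and 65.4 CPM in ctrl-Treg and 43.5, 49.2 and 46.3 CPM in Sora-Treg libraries (log2 fold change -0.45 ± 0.05, edgeR adjusted p = 2.80e-08). The bifunctional enzymes of the later steps, Paics and Atic, were the most abundant of the 6 per length, at 98.5 and 63.2 FPKM in ctrl-Treg cells, and changed least. Paics went from 236 ± 7.52 to 196 ± 5.51 CPM (log2 fold change -0.27 ± 0.03, edgeR adjusted p = 2.03e-07). Atic, which closes the ring, went from 159 ± 3.88 to 126 ± 4.50 CPM (log2 fold change -0.33 ± 0.04, edgeR adjusted p = 2.79e-08). Ppat and Paics start next to each other on opposite strands and share 272 exon bases in the annotation, 6.15% of those of Ppat and 8.67% of those of Paics, and the treatment of strand in counting was not stated.

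**Figure D2:**
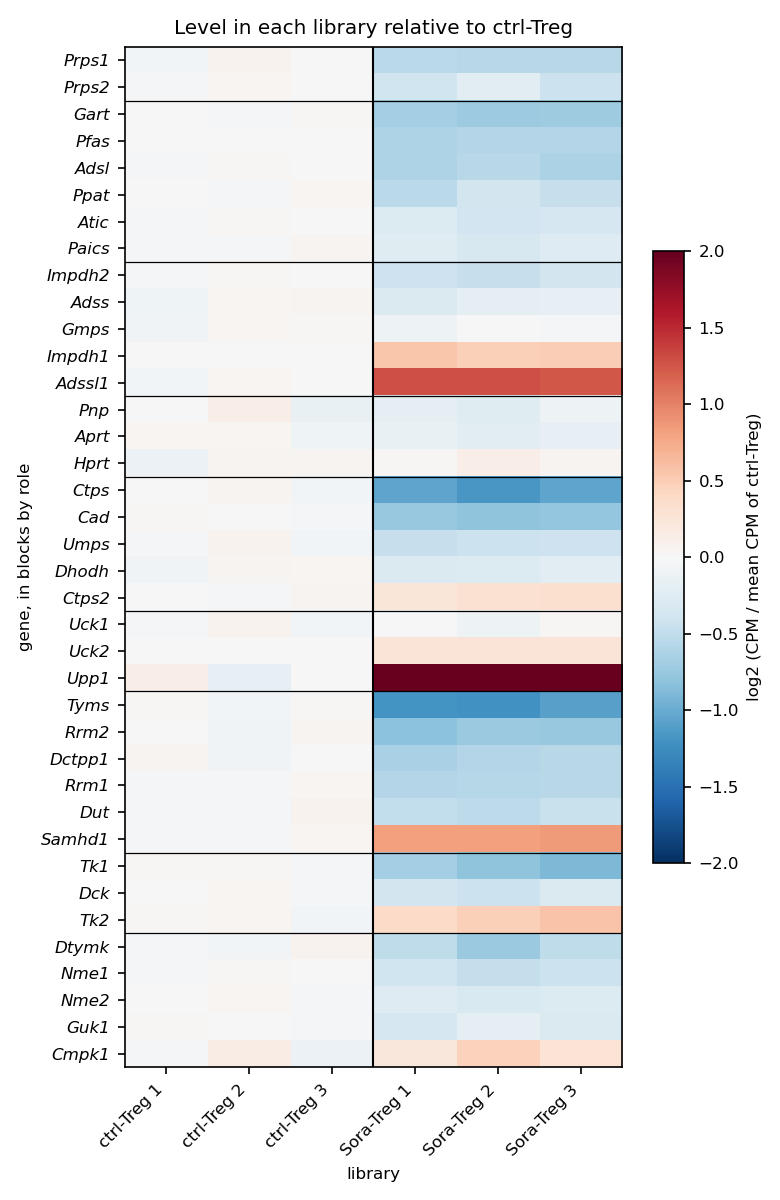
Level of each of the 38 genes in each of the 6 libraries, as the log2 ratio of its CPM to the mean CPM of the 3 ctrl-Treg libraries (colour; blue is lower, red is higher), with genes in blocks by role. The 3 Sora-Treg columns resemble each other, with blue rows for the purine ring and red rows for Adssl1, Upp1 and Samhd1; the colour scale ends at 2 on either side, which Upp1 exceeds.

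From IMP onward the genes no longer moved together. Of 5 genes on the branches to AMP and GMP, 2 were lower, 2 were higher and Gmps was not called. Of all genes tested, 29.9% were lower and 29.7% higher. IMP dehydrogenase, the rate-limiting enzyme on the way to GMP and the target of mycophenolate, is encoded by a pair of genes that moved in opposite directions. Impdh2, the isoenzyme that predominates in proliferating cells, was measured at 241, 250 and 246 CPM in ctrl-Treg and at 185, 179 and 190 CPM in Sora-Treg libraries. It was lower in all 3 Sora-Treg libraries (log2 fold change -0.41 ± 0.03, edgeR adjusted p = 9.53e-11). Impdh1 rose from 115, 117 and 115 CPM to 170, 161 and 164 CPM, again with no overlap (log2 fold change 0.51 ± 0.03, edgeR adjusted p = 7.76e-12). Gmps, which makes GMP in the next step, had 69.5, 75.0 and 73.7 CPM against 67.9, 72.1 and 70.4 CPM. Its groups overlapped, and the 95% interval of its log2 fold change ran from -0.14 to 0.04 (edgeR adjusted p = 0.315). Scaled by library totals, Gmps was called lower (log2 fold change -0.17, edgeR adjusted p = 1.42e-03), as it was in 3 fits on FPKM values.

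The branch to AMP showed the same split on a smaller scale of abundance. Adss, the adenylosuccinate synthetase of most tissues, went from 96.1, 105 and 106 CPM to 83.5, 89.6 and 91.4 CPM, and the highest Sora-Treg library stayed below the lowest ctrl-Treg library (log2 fold change -0.22 ± 0.04, edgeR adjusted p = 1.96e-04). Adssl1, known as the muscle isoenzyme, was counted 147, 145 and 125 times in ctrl-Treg and 289, 301 and 326 times in Sora-Treg libraries. That corresponds to 3.73, 3.98 and 3.91 CPM against 9.52, 9.44 and 9.16 CPM, a 2.42-fold higher level (log2 fold change 1.27 ± 0.12, edgeR adjusted p = 2.71e-09). Per length Adssl1 stayed below Adss in both groups, at 2.25 against 41.7 FPKM in ctrl-Treg and 5.03 against 33.2 FPKM in Sora-Treg cells.

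Purine salvage changed little. Hprt, which recovers hypoxanthine and guanine, had 139, 156 and 155 CPM in ctrl-Treg and 153, 165 and 155 CPM in Sora-Treg libraries. The groups overlapped, with a 95% interval from -0.02 to 0.16 for the log2 fold change (edgeR adjusted p = 0.151), and its sign turned to -0.045 when counts were scaled by library totals. Aprt, which recovers adenine, had 81.7, 81.6 and 75.3 CPM against 71.5, 69.0 and 71.2 CPM (log2 fold change -0.17 ± 0.04, edgeR adjusted p = 1.06e-03). Of the ctrl-Treg libraries, library 3 was the lowest for Aprt, and with libraries 1 and 2 left out, so that it stood alone, the log2 fold change was -0.09. What part myeloid RNA had in the level of Aprt was not tested. Pnp, the phosphorylase whose loss causes T cell deficiency, had 42.6, 46.2 and 38 CPM against 37.3, 35.6 and 39.4 CPM. Its groups overlapped and the call rested on single libraries, with a log2 fold change of -0.18 ± 0.06 (edgeR adjusted p = 0.0185) that lost the call without ctrl-Treg library 1 (0.0567), ctrl-Treg library 2 (0.174) or Sora-Treg library 2 (0.0738). Without ctrl-Treg libraries 1 and 2 it was -0.02, with 1 ctrl-Treg library left. Pnp also shares 18% of its exon bases with a predicted gene on the same strand.

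Pyrimidine ring synthesis was lower at each step up to UMP, and the steepest fall was that of Ctps, an isoenzyme of the last step, to CTP. The other isoenzyme of that step, Ctps2, was higher. Of the 5 genes of this pathway, 4 were lower and 1 was higher, beside 29.9% and 29.7% of all genes tested. The summed level of the 5 genes was 88.2 ± 1.48 FPKM in ctrl-Treg and 55.7 ± 0.826 FPKM in Sora-Treg libraries. Cad, the trifunctional enzyme of the opening steps and the point at which growth signals regulate the pathway, was measured at 218, 212 and 211 CPM in ctrl-Treg and at 126, 122 and 125 CPM in Sora-Treg libraries. The groups were far apart relative to their spread, with a 1.72-fold lower level (log2 fold change -0.78 ± 0.03, edgeR adjusted p = 9.97e-16). Dhodh, the mitochondrial enzyme inhibited by leflunomide, was the least abundant of the 5 per length, at 7.74 FPKM in ctrl-Treg cells, and had 16.5, 18.0 and 17.8 CPM against 14.2, 14.4 and 14.9 CPM (log2 fold change -0.26 ± 0.08, edgeR adjusted p = 5.50e-03). Umps, which completes UMP, had 63.9, 68.7 and 62.8 CPM against 47.4, 48.3 and 49.1 CPM (log2 fold change -0.43 ± 0.05, edgeR adjusted p = 2.54e-08).

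CTP synthase, which aminates UTP, was another pair of isoenzymes that diverged. Ctps, on which proliferating lymphocytes depend, was measured at 61.7, 64.5 and 59.2 CPM in ctrl-Treg and at 29.6, 27.6 and 29.7 CPM in Sora-Treg libraries. It was 2.14-fold lower with no overlap (log2 fold change -1.09 ± 0.05, edgeR adjusted p = 1.54e-14), and leaving out any single library kept the log2 fold change between -1.12 and -1.06. Ctps2, the other isoenzyme, rose from 59.6, 57.9 and 61.9 CPM to 71.0, 73.7 and 74.9 CPM (log2 fold change 0.29 ± 0.04, edgeR adjusted p = 2.88e-06). Every Sora-Treg library was above every ctrl-Treg library for Ctps2 and below for Ctps.

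Pyrimidine salvage was the only one of the 9 roles with a positive median, at 0.26, and with no gene called lower, although Uck1 was called lower with scaling by library totals. It held the largest rise among the 38 genes. Upp1, uridine phosphorylase, which splits uridine into uracil and ribose phosphate, was counted 160, 120 and 119 times in ctrl-Treg and 464, 481 and 533 times in Sora-Treg libraries. In CPM this was 4.06, 3.30 and 3.73 against 15.3, 15.1 and 15.0, a 4.08-fold higher level (log2 fold change 2.03 ± 0.11, edgeR adjusted p = 1.61e-13). The 3 Sora-Treg libraries were almost equal, and leaving out any library gave 1.95 to 2.11. Upp1 was the least abundant of the 38 genes in ctrl-Treg cells, at 2.21 FPKM. Uck2, the uridine-cytidine kinase of fast-growing cells, had 222, 221 and 221 CPM against 264, 265 and 265 CPM, with hardly any spread (log2 fold change 0.26 ± 0.03, edgeR adjusted p = 3.83e-08). Uck1, its relative found in most tissues, had 50.0, 53.3 and 49.0 CPM against 50.6, 47.5 and 51.9 CPM. The groups of Uck1 overlapped, with a 95% interval from -0.12 to 0.08 (edgeR adjusted p = 0.717).

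Of 6 genes that set the supply of deoxynucleotides, the 5 that make them or clear the wrong ones were lower. Samhd1, which breaks deoxynucleotides down, was higher. Of all genes tested, 29.9% were lower and 29.7% higher. Among the 6 genes, Tyms, thymidylate synthase, the target of fluorouracil, changed most. Its values were 38.1, 36.2 and 37.9 CPM in ctrl-Treg and 16.4, 16.1 and 17.7 CPM in Sora-Treg libraries. It was 2.23-fold lower with no overlap (log2 fold change -1.16 ± 0.06, edgeR adjusted p = 3.03e-13), between -1.20 and -1.13 with any single library left out. Both subunits of the ribonucleotide reductase of S phase were lower. The small subunit Rrm2 had 94.6, 90.1 and 98.4 CPM against 53.6, 56.6 and 56.1 CPM (log2 fold change -0.77 ± 0.04, edgeR adjusted p = 4.03e-13). The large subunit Rrm1 had 178, 180 and 187 CPM against 121, 122 and 124 CPM (log2 fold change -0.57 ± 0.03, edgeR adjusted p = 7.41e-13). For neither subunit did the groups overlap.

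Samhd1, a dNTP hydrolase that also restricts retroviruses, moved against the other genes of this role. It was measured at 359, 359 and 377 CPM in ctrl-Treg and at 646, 647 and 656 CPM in Sora-Treg libraries, and had the smallest adjusted p of the 38 genes (1.78-fold higher, log2 fold change 0.83 ± 0.03, edgeR adjusted p = 1.77e-17). By level per length it stood sixth among the 38 genes in ctrl-Treg cells, at 80.6 FPKM, and reached 132 FPKM in Sora-Treg cells. Dut and Dctpp1, which remove dUTP and modified dCTP, were lower. Dut went from 90.8 ± 3.93 to 64.9 ± 1.73 CPM (log2 fold change -0.48 ± 0.04, edgeR adjusted p = 9.37e-10) and Dctpp1 from 19.3 ± 0.894 to 12.7 ± 0.422 CPM (log2 fold change -0.60 ± 0.08, edgeR adjusted p = 6.67e-07). Because of Samhd1, the summed level of the 6 genes differed less than their median log2 fold change. The sums were 249 ± 7.24 FPKM in ctrl-Treg and 233 ± 2.95 FPKM in Sora-Treg libraries. The median was -0.58 with TMM and -0.70 with library totals, the scaling that FPKM use.

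The kinases of thymidine moved in opposite directions. Tk1, the cytosolic thymidine kinase of S phase, was lower, at 37.0, 37.1 and 35.5 CPM in ctrl-Treg and 22.8, 21.0 and 19.5 CPM in Sora-Treg libraries (log2 fold change -0.79 ± 0.06, edgeR adjusted p = 2.98e-10). Tk2, the mitochondrial thymidine kinase, was higher, at 29.9, 30.1 and 28.3 CPM against 38.2, 41.0 and 43.5 CPM (log2 fold change 0.47 ± 0.06, edgeR adjusted p = 2.33e-07). Neither gene's groups overlapped. Dck, the deoxycytidine kinase that activates several antileukaemic nucleosides, had 47.9, 49.0 and 46.6 CPM against 36.9, 35.4 and 39.1 CPM, lower in every Sora-Treg library (log2 fold change -0.36 ± 0.05, edgeR adjusted p = 1.81e-06).

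Of 5 kinases that charge mono- and diphosphates, 4 were lower and Cmpk1 was higher, beside 29.9% and 29.7% of all genes tested. Dtymk, which makes dTDP next after Tyms and Tk1, had 40.6, 39.5 and 43.3 CPM against 28.9, 24.7 and 28.9 CPM (log2 fold change -0.58 ± 0.06, edgeR adjusted p = 3.85e-08). Tyms, Tk1 and Dtymk, the steps from dUMP or thymidine to dTDP, were thus each lower in all 3 Sora-Treg libraries. The nucleoside diphosphate kinases Nme1 and Nme2 went from 84.4 ± 1.08 to 62.4 ± 1.49 CPM (log2 fold change -0.44 ± 0.04, edgeR adjusted p = 1.87e-09) and from 264 ± 5.66 to 217 ± 3.01 CPM (log2 fold change -0.28 ± 0.03, edgeR adjusted p = 2.13e-08). Nme2 was the most abundant of the 38 per length in both groups, at 235 FPKM in ctrl-Treg and 179 FPKM in Sora-Treg cells. The pair is similar in sequence, and a read-through gene of both shares 48.9% of the exon bases of Nme2, so their reads may have been divided between them. Guk1, the kinase of GMP, went from 23.7 ± 0.526 to 19.7 ± 1.14 CPM (log2 fold change -0.26 ± 0.07, edgeR adjusted p = 2.18e-03). Without ctrl-Treg libraries 1 and 2, which leaves 1 ctrl-Treg library, its log2 fold change was -0.23. Cmpk1, the kinase of UMP and CMP, had 28.1, 32.0 and 26.7 CPM against 33.7, 39.8 and 35.1 CPM (log2 fold change 0.32 ± 0.07, edgeR adjusted p = 4.24e-04). Library 2 was the highest of each group for Cmpk1, yet the groups did not overlap.

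In 8 pairs of isoenzymes the balance between the members was compared within each library, as the share of the first in the summed FPKM of the pair, a measure that does not depend on how libraries are scaled. The shares of the groups did not overlap in any of the 8 pairs, beside 63.7% of single genes tested without overlap, and pairs of other genes were not examined. With 3 libraries against 3 the two-sided exact permutation test of the log2 ratio cannot go below p = 0.1, which each of the 8 pairs reached (adjusted p = 0.1 over the 8), so none could pass 0.05. In 5 pairs the difference in the log2 ratio was 0.81 or more in size, and in each the first-named gene held a smaller share in Sora-Treg libraries. How counting treated reads that match both members of a pair was not stated, so close pairs are uncertain. Ctps held 67.8%, 69.3% and 66.0% of its pair with Ctps2 in ctrl-Treg and 45.9%, 43.1% and 44.6% in Sora-Treg libraries. By FPKM, which takes gene length into account, the major isoenzyme thus changed. By counts the log2 ratio of Ctps to Ctps2 was 0.05 ± 0.108 in ctrl-Treg and -1.34 ± 0.0794 in Sora-Treg libraries. In ctrl-Treg library 3, Ctps had fewer counts than Ctps2 (1892 against 1976). An exchange of rank by FPKM was also seen for Tk1 with Tk2, where Tk1 held 65.9%, 65.9% and 66.3% against 48.3%, 44.5% and 41.2%. Impdh2 remained the major dehydrogenase, with 77.4%, 77.6% and 77.7% against 63.9%, 64.4% and 65.4% of the pair with Impdh1.

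Adss went from 94.9 ± 0.127% to 86.8 ± 0.745% of the pair with Adssl1, the largest change of ratio (2.81-fold lower). Rrm2 went from 91.4 ± 0.365% to 85.8 ± 0.468% of the pair with Rrm2b, the small subunit induced by p53, whose own log2 fold change was 0.04 ± 0.07 (edgeR adjusted p = 0.644) and turned to -0.075 with scaling by library totals. The other 3 pairs moved less. Uck2 held 63.2 ± 1.05% and 67.5 ± 1.02% of the pair with Uck1, Prps2 held 14.8 ± 0.205% and 16.7 ± 1.1% of the pair with Prps1, and Nme1 held 21.3 ± 0.35% and 19.5 ± 0.171% of the pair with Nme2.

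**Figure D3:**
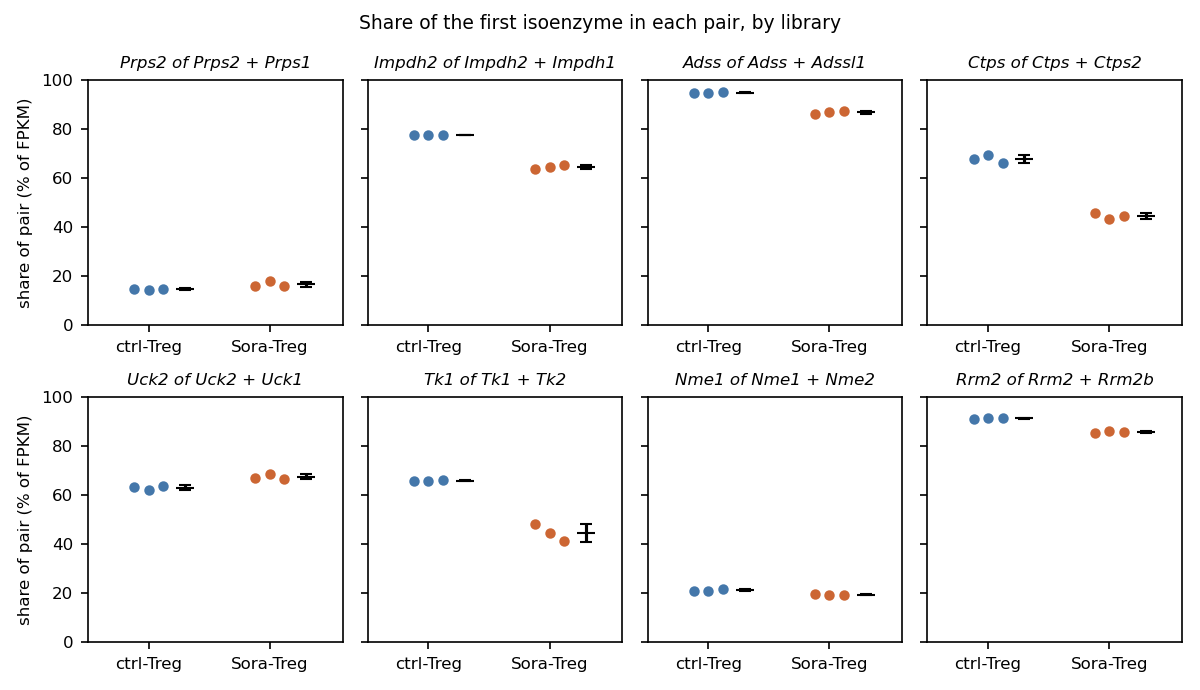
Share of the first isoenzyme in the summed FPKM of each of 8 pairs (vertical axis, percent), by library (points; 3 ctrl-Treg in blue, 3 Sora-Treg in orange), with the mean and SD as black lines. The shares of Ctps and Tk1 lie above 50% in every ctrl-Treg library and below it in every Sora-Treg library.

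The pathways that feed or surround these enzymes were described by lists set alongside the 38 genes. Of 109 listed genes, 101 could be tested, of which 59 were lower, 17 were higher and 25 were not called, with a median log2 fold change of -0.28. The lower genes were 58.4% and the higher genes 16.8% of those tested, beside 29.9% and 29.7% of all genes tested. Folate enzymes, which carry the carbon units for purine rings and thymidylate, had 10 of 15 genes lower, 3 higher and a median of -0.39. Mthfd1, the trifunctional cytosolic enzyme that makes formyl-folate for Gart and Atic, had 100, 98.9 and 96.2 CPM in ctrl-Treg and 50.0, 49.7 and 49.2 CPM in Sora-Treg libraries (log2 fold change -0.99 ± 0.04, edgeR adjusted p = 8.58e-16). Shmt1, the cytosolic serine hydroxymethyltransferase, had 42.5, 43.6 and 44.9 CPM against 18.2, 18.3 and 16.9 CPM (log2 fold change -1.30 ± 0.06, edgeR adjusted p = 1.23e-14).

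The mitochondrial arm of the folate pathway was mostly lower as well. Mthfd2, the dehydrogenase typical of activated T cells, went from 269 ± 4.25 to 150 ± 2.09 CPM (log2 fold change -0.84 ± 0.03, edgeR adjusted p = 1.14e-16), and Shmt2 from 254 ± 3.59 to 154 ± 4.31 CPM (log2 fold change -0.72 ± 0.03, edgeR adjusted p = 3.70e-15). Aldh1l2, which oxidises formyl-folate, fell furthest of the 15, at 47.9, 46.8 and 46.8 CPM against 10.5, 9.88 and 10.9 CPM (log2 fold change -2.17 ± 0.06, edgeR adjusted p = 3.31e-18). An exception was Mthfd1l, which releases formate from mitochondria and rose from 247 ± 4.39 to 320 ± 5.93 CPM (log2 fold change 0.37 ± 0.03, edgeR adjusted p = 9.65e-11).

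The ribose and amino acid lists did not move one way. Of 8 genes of the pentose phosphate pathway and ribose supply, 2 were higher and 3 lower, where 29.7% of all genes tested were higher and 29.9% lower, and the median was 0.03, which turned to -0.09 with scaling by library totals. Pgd, of the oxidative branch, rose (log2 fold change 0.72 ± 0.04, edgeR adjusted p = 8.02e-14), and Rpia, which makes ribose phosphate, fell (log2 fold change -0.73 ± 0.07, edgeR adjusted p = 1.93e-09). Of 8 genes of aspartate and glutamine supply, 2 were higher and 4 lower, beside the same 29.7% and 29.9% of all genes tested, with a median of -0.10.

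Of 49 other nucleotide enzymes and transporters, 41 could be tested, of which 19 were lower, 7 were higher and 15 were not called (median -0.16). That is 46.3% lower and 17.1% higher, beside 29.9% and 29.7% of all genes tested. The adenosine enzymes were among the lower ones. Ada, adenosine deaminase, had 6.43, 7.39 and 7.86 CPM in ctrl-Treg and 3.43, 2.57 and 3.43 CPM in Sora-Treg libraries (log2 fold change -1.20 ± 0.15, edgeR adjusted p = 3.19e-07). Adk, adenosine kinase, went from 27.0 ± 0.699 to 16.7 ± 0.647 CPM (log2 fold change -0.69 ± 0.07, edgeR adjusted p = 7.27e-09). Ak1, an adenylate kinase, fell furthest, from 4.89 ± 0.403 to 0.707 ± 0.163 CPM (log2 fold change -2.78 ± 0.22, edgeR adjusted p = 2.38e-10). All 4 nucleoside transporters that could be tested were lower, with Slc29a1 at -0.38 and Slc29a2 at -0.94 on the log2 scale (edgeR adjusted p = 8.14e-08 and 5.09e-04), Slc28a2 at 78.3 ± 3.84 against 51.4 ± 2.70 CPM (log2 fold change -0.61 ± 0.05, edgeR adjusted p = 1.58e-10) and Slc29a3 at 64.4 ± 0.586 against 37.0 ± 1.13 CPM (log2 fold change -0.80 ± 0.05, edgeR adjusted p = 5.02e-13). Among the higher ones was Xdh, xanthine dehydrogenase, which ends purine breakdown in urate, at 4.93, 5.82 and 4.10 CPM against 14.8, 12.4 and 14.5 CPM (log2 fold change 1.48 ± 0.12, edgeR adjusted p = 2.72e-10). Low counts limited Cmpk2, the mitochondrial UMP-CMP kinase, which went from 1.64 ± 0.371 to 0.481 ± 0.0944 CPM (log2 fold change -1.76 ± 0.34, edgeR adjusted p = 1.18e-04), and Ak5, which went from 0.495 ± 0.144 to 1.16 ± 0.35 CPM (log2 fold change 1.20 ± 0.38, edgeR adjusted p = 8.83e-03, or 0.0619 without Sora-Treg library 1).

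Known regulators of nucleotide genes, 7 of them transcription factors and 3 of the mTOR pathway, did not all move with them. Of these 10 genes, 5 were lower and 3 were higher, beside 29.9% and 29.7% of all genes tested. Of the mTOR pathway, Rheb was lower (log2 fold change -0.34), while Mtor (0.02) and Rps6kb1 (-0.10) were not called. With scaling by library totals, Mtor (-0.09) and Rps6kb1 (-0.22) were called lower. Myc, which activates many nucleotide genes in growing cells, was higher, at 319, 317 and 310 CPM in ctrl-Treg and 404, 394 and 419 CPM in Sora-Treg libraries (log2 fold change 0.36 ± 0.03, edgeR adjusted p = 1.87e-10). Its partner Max went from 118 ± 1.89 to 138 ± 0.779 CPM (log2 fold change 0.23 ± 0.03, edgeR adjusted p = 3.37e-06). Mycn was barely present, with 5, 5 and 5 counts against 24, 39 and 28 counts (log2 fold change 2.71 ± 0.46, edgeR adjusted p = 2.79e-05). E2f1 and E2f3, of the E2F factors that activate Rrm2, Tyms, Tk1 and other S phase genes, were lower, with E2f1 at 37.0 ± 1.15 against 30.4 ± 1.13 CPM (log2 fold change -0.28 ± 0.06, edgeR adjusted p = 1.24e-04) and E2f3 at 39.5 ± 1.19 against 30.5 ± 1.22 CPM (log2 fold change -0.37 ± 0.05, edgeR adjusted p = 3.58e-06). Atf4, which drives Mthfd2 and Aldh1l2 under amino acid stress, changed by -0.11 ± 0.03 (edgeR adjusted p = 2.03e-03).

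Genes of cell division were lower together with the nucleotide genes. Of 19 listed genes, 18 were lower and 1 was not called, where 29.9% of all genes tested were lower. Their median of -0.65 lay below that of the 38 nucleotide genes. Mki67, a marker of cycling cells, had 472, 447 and 480 CPM in ctrl-Treg and 278, 295 and 300 CPM in Sora-Treg libraries (log2 fold change -0.68 ± 0.03, edgeR adjusted p = 2.14e-14). Pcna, the sliding clamp of DNA replication, went from 308 ± 9.81 to 251 ± 2.01 CPM (log2 fold change -0.30 ± 0.03, edgeR adjusted p = 9.91e-09). The gene not called was Ccne2, named for that reason after its values were seen (log2 fold change -0.03 ± 0.15, edgeR adjusted p = 0.898). Its sign depended on single libraries, with -0.21 to 0.15 when any one was left out. It was 0.48 without ctrl-Treg libraries 1 and 2, which leaves 1 ctrl-Treg library. What part the share of dividing cells had in the levels of the nucleotide genes was not tested.

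**Figure D4:**
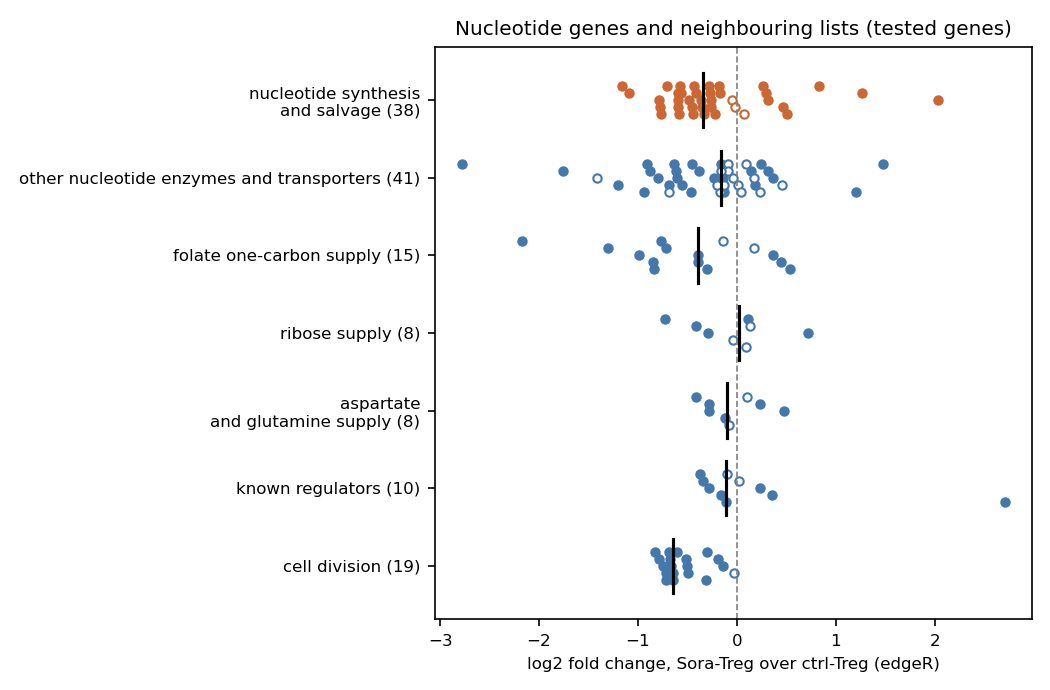
Log2 fold change, Sora-Treg over ctrl-Treg (edgeR), of every tested gene of the 38 nucleotide genes (orange) and of 6 neighbouring lists (blue; number tested in brackets), with filled points called at an adjusted p under 0.05 and a black line at each median. The medians run from 0.03 for ribose supply to -0.65 for cell division, with the nucleotide genes at -0.34.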

How the data were processed

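RNA-seq libraries of sorted mouse Treg cells, 3 control and 3 sorafenib, were grouped by sample title, and the labels name no batch. The authors deposited raw counts for 22939 genes and FPKM values for the same genes. The FPKM values could be rebuilt from the counts with a fixed length for each gene and the total of each library (largest relative spread of the implied length 1.64e-06), so they are no separate measurement. The methods of the study name Bowtie2 and GRCm38, while the submitters' processing notes name fastp, HISAT2, HTSeq, R 3.2.0, DESeq2 and GRCm39. The build behind the counts is therefore unsettled, and coordinates are given only for RefSeq promoter windows. Strand use and annotation release in counting are not given in the sources used here.

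Counts were tested with edgeR 4.0.16 (R 4.3.3; quasi-likelihood test, TMM scaling, filterByExpr, Benjamini-Hochberg adjustment over 13463 genes) at an adjusted p under 0.05, first at any fold and then past 2-fold, the criterion of the study. CPM are TMM-scaled. The fits were tested on simulated data. Isoenzyme ratios were compared by exact permutation (scipy 1.17.1). Replicates differed by more than sampling noise (chi-square per degree of freedom 3.48 to 6.23), and the biological coefficient of variation was 4.29%. Alternatives were other scalings and filters, DESeq2 1.42.0, robust fitting, a replicate block, limma 3.58.1 on log2(FPKM + 1) and log2(FPKM + 0.1), and each library left out. Leaving out ctrl-Treg libraries 1 and 2 together was chosen after seeing the data and leaves 1 ctrl-Treg library. The members and lists were chosen with earlier results of these data known. All 38 genes were named, and from each neighbouring list the called genes past 2-fold and genes that act beside a member, the latter picked with their values known.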

Additional observations from a re-analysis of the deposited data

How the results depend on the processing

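Of the 35 nucleotide genes called, 31 kept their call and direction under all 18 alternatives, and the exceptions were Aprt, Cmpk1, Guk1 and Pnp. Where each group kept at least 2 libraries, between 26 and 29 genes were lower and 7 or 8 were higher. Cmpk1 lost its call when limma was run on unfiltered log2(FPKM + 1) values (adjusted p = 0.143). Aprt and Guk1 lost theirs without control replicates 1 and 2, where 1 control library remained. Their log2 fold changes were then -0.09 and -0.23, beside -0.17 and -0.26 with all libraries. What part the smaller group had in this was not tested. With limma on log2(FPKM + 1), with or without a filter, 1 gene in place of 2 was higher past 2-fold, since the pseudocount shrinks the change of the weakly expressed Adssl1. Of the neighbouring genes, 11 in place of 17 were called higher in all 3 limma fits on FPKM, and 14 in edgeR with scaling by library totals. The limma fits with a filter tested 92 of these genes in place of 101. Of 30 neighbouring genes followed, 26 kept their call and direction, Ak5, E2f2 and Nt5c lost their call under some alternative, and Rrm2b, not called, changed sign only. Hprt and Uck1, not called either, also changed sign, as did Ccne2 (-0.21 to 0.15 with single libraries left out, 0.48 without control replicates 1 and 2). Hprt was -0.045 with scaling by library totals and in the 3 FPKM fits. Gmps, not called in the main fit, was called lower with library totals (-0.166) and in the 3 FPKM fits (-0.149, -0.165 and -0.149). Uck1 ranged from -0.05 to 0.016 with single libraries left out (positive without control replicate 2 or sorafenib replicate 2) and was 0.031 without control replicates 1 and 2. Rrm2b was -0.075 with library totals, -0.058, -0.070 and -0.058 in the FPKM fits, between -0.018 and 0.083 with single libraries left out and -0.007 without control replicates 1 and 2. The isoenzyme differences kept their direction with any library left out. Why other values moved was not tested. Replicate numbers did not pair the libraries (correlations of deviations -0.0438, 0.0591 and 0.0299), and with a replicate block 27 genes were lower and 8 higher, 18 and 61 of the neighbouring genes were higher and lower, and no call among the 38 changed. Low counts limit the precision of Mycn, Ak5, Cmpk2 and Ak1.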
